A study of Homo sapiens with 8 samples.

Results

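The data concern the replication-dependent histone gene clusters, where binding of G3BP1 to RNA was mapped in HEK293T, an established line of human embryonic kidney cells, with and without PDS. G3BP1 is an RNA-binding protein that nucleates stress granules. The assay was seCLIP, in which light crosslinks proteins to the RNA they touch, an antibody pulls down 1 protein with its RNA (the immunoprecipitate, IP), and fragments of that RNA are sequenced and set against an input library made without antibody. Untreated cells (Ctrl) and cells kept with 20 µM PDS for 12 h before crosslinking each gave 2 IP and 2 input libraries, 8 in all, and the authors deposited 1 peak list per condition that combines the replicates. PDS is not spelled out in the labels; the abbreviation is commonly used for pyridostatin, a ligand of guanine quadruplexes.

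Peaks were chosen by position: those on either strand that lay wholly inside chr6:26015000-26290000, chr6:27090000-27870000 or chr1:149780000-149865000 (hg19). These windows were selected on the peak positions of the same lists, with earlier results known, so numbers and overlaps are given as a description and without a test. They held 38 of the 4346 deposited peaks, 21 of the 1421 Ctrl peaks and 17 of the 2925 PDS peaks. The borders cut through no peak. The nearest peaks outside lay 19933 nt beyond the chromosome 1 window in the PDS list (log2 fold enrichment of IP over input 3.86) and 19941 nt beyond it in the Ctrl list (3.26), and the outermost members lay 6288 nt or more inside a border. Around the chromosome 6 windows, apart from members of the other window, the nearest outside peaks lay 3369052 nt or more away.

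Replication-dependent histone genes supply the core histones H2A, H2B, H3 and H4 and the linker histones H1 that package newly made DNA in S phase. Their genes are mostly short and without introns and sit in dense clusters, often as H2A and H2B neighbours read in opposite directions from a shared promoter region. Their mRNAs usually end in a stem-loop bound by SLBP in place of a poly(A) tail, and some also occur in a polyadenylated form. Because members of a family have very similar coding sequences, reads can match several copies, and how such reads were treated is not given in the sources used here; the copy named for a peak is uncertain to that extent.

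Same-strand peaks of either list with gaps of up to 1000 nt were joined into 15 bound stretches. Each stretch lies where general knowledge of the hg19 map places 1 histone gene, and that gene's name is used below. An annotation of hg19 was not used here, so peaks were not placed in coding or untranslated parts. The check that could be made was with RefSeq's GRCh38 annotation. The 15 stretches follow the order of the named genes there, and the strand was the same for the 14 genes with a listed strand. Each stretch was no longer than its gene, which says little for H2BC4 and H2BC5, since RefSeq gives them 10757 and 13229 nt. Names had been given to stretches by their order within a window, and positions were not compared. The check therefore cannot show which of several similar genes a stretch lies on. No genome sequence of the files' build was used here, so no peak sequence is shown.

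Untreated cells held G3BP1 peaks on 13 of the 15 genes and PDS-treated cells on 9. Of the 1868 stretches formed from the whole lists, 896 held a Ctrl peak and 1486 a PDS peak. On 7 genes both lists had peaks: the linker histone genes H1-2 and H1-4, the H3 genes H3C2 and H3C10, the H2B genes H2BC5 and H2BC11, and the H2A gene H2AC20. On 6 genes the peaks were in the Ctrl list alone: H2AC6, H2AC11 and H2AC17, which encode H2A, and H2BC4, H2BC15 and H2BC21, which encode H2B. On H2AC12, another H2A gene, and H4C5, an H4 gene, peaks were in the PDS list alone. Absence of a PDS peak from 6 of the 13 genes with Ctrl peaks was near the background, where 382 of 896 such stretches lacked one. Absence of a Ctrl peak was rarer than the background: 2 of 9 genes with PDS peaks here, against 972 of 1486 stretches. With 1 combined list per condition there is no replicate check on any difference between the lists. Peaks also depend on how much of an mRNA the cells hold and how deeply it was sequenced; RNA levels and read totals were not analysed here, so binding and RNA amount cannot be told apart.

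The clusters held fewer PDS than Ctrl peaks, whereas the PDS list as a whole was the longer. The ratio of PDS to Ctrl peaks was 0.81 in the clusters and 2.06 over the whole lists. The clusters made up 1.48% of Ctrl peaks (exact 95% binomial interval 0.917 to 2.25%) and 0.581% of PDS peaks (0.339 to 0.929%); these intervals, like those below, cover counting error only, and peaks on 1 gene are not independent. Outside the clusters the ratio lay between 1.44 on chromosome 3 and 5.20 on chromosome 21, with 0 of 23 chromosomes below 1. On the rest of chromosome 6 it was 2.34 (53 Ctrl and 124 PDS peaks). Most chromosome totals pool many genes, so this range does not show how far single loci vary. Over the whole lists, 382 of 896 stretches with a Ctrl peak held no PDS peak, and 69 held both with fewer PDS peaks. In the other direction, 972 held PDS peaks alone and 208 held both with more PDS peaks. Of the 7 cluster genes with both, 2 held more PDS peaks, 3 as many and 2 fewer, with 13 Ctrl and 15 PDS peaks in total. The lower PDS number thus lay in genes bound in 1 list only, with 8 Ctrl and 2 PDS peaks. After same-strand peaks within 50 nt were merged, the clusters held 14 Ctrl and 13 PDS regions, a ratio of 0.93 against 1.73 over the whole lists. The length under peaks was 1306 nt in the Ctrl list and 1118 nt in the PDS list, a ratio of 0.86 against 1.74.

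**Figure D1:**
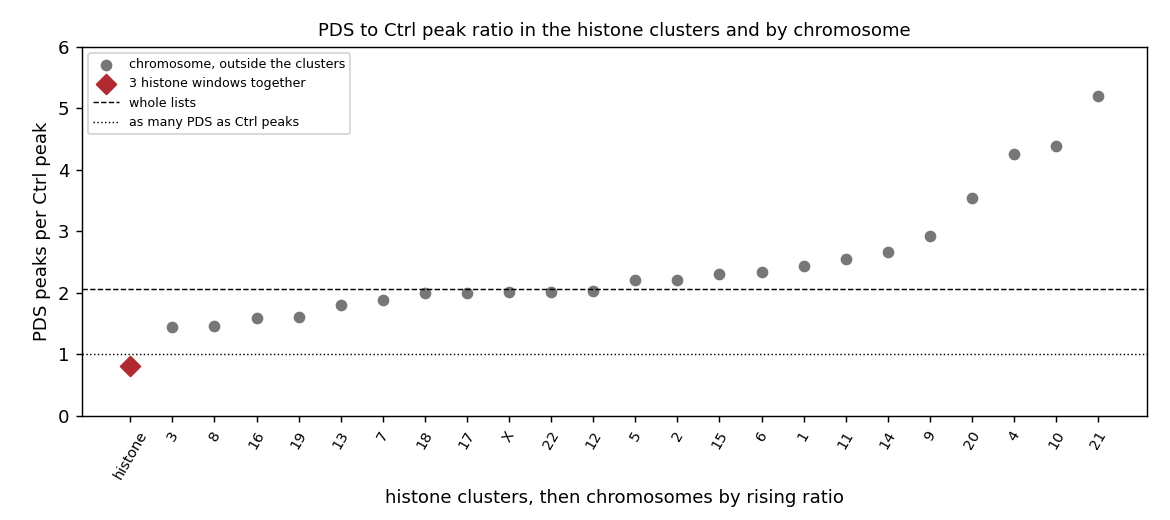
Ratio of PDS to Ctrl peaks (vertical axis, peaks per peak) in the 3 histone windows together (diamond, 0.81) and on each of 23 chromosomes outside them (points, 1.44 to 5.20, in rising order). The dashed line is the whole-list ratio of 2.06, and the dotted line marks as many PDS as Ctrl peaks. Most chromosome points pool many genes and do not show the spread among single loci.

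The windows differed among themselves. The first chromosome 6 window held 12 Ctrl and 12 PDS peaks, covering 663 and 659 nt. The second held 7 Ctrl and 3 PDS peaks, covering 439 and 316 nt. The chromosome 1 window held 2 peaks of each list, covering 204 and 143 nt. The ratio of PDS to Ctrl peaks was thus 1.00, 0.43 and 1.00, so the lower number of PDS peaks came from the second window: without it both lists held 14 peaks. No window had a ratio near the 2.06 of the whole lists.

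Of the 21 Ctrl peaks, 11 shared at least 1 nt with a PDS peak on the same strand, 52.4% (interval 29.8 to 74.3%), beside 51.5% of all Ctrl peaks. Among the 17 PDS peaks there were 12 with such an overlap, 70.6% (44.0 to 89.7%), beside 30.6% of all PDS peaks. The Ctrl share is thus near the background, while the PDS share is above it. Both shares rest on the same overlapping pairs, so the higher PDS share largely restates the low number of PDS members. The same holds for the shares by stretch that follow. By stretch, 7 of 13 with a Ctrl peak also held a PDS peak (53.8%, interval 25.1 to 80.8%; 57.4% over the whole list), and 7 of 9 with a PDS peak also held a Ctrl peak (77.8%, 40.0 to 97.2%; 34.6% over the whole list). In the PDS list alone, 2 of 15 stretches were bound, where 972 of 1868 were over the whole lists. Of the members with a log2 fold of at least 4 and a −log10 p of at least 5, 4 of 6 PDS peaks (66.7%, beside 53.8% of all PDS peaks past these limits) and 4 of 10 Ctrl peaks (40%, beside 69.0%) overlapped the other list taken whole. When both lists were held to these limits, 1 of 6 PDS members (16.7%, beside 21.5%) and 1 of 10 Ctrl members (10%, beside 45.4%) overlapped. Where a member past the limits had a partner in the other whole list, that partner mostly had a log2 fold under 4. Most of the 10 Ctrl members, however, met no PDS peak at any deposited fold.

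The median enrichment of the members lay above that of the whole list in both conditions, by little beside the range of the members. The members are few and no interval is given for these medians, so a difference from the lists is not established. The median log2 fold over input was 3.96 for the 21 Ctrl peaks (range 3.09 to 5.11), beside 3.52 over the Ctrl list. It was 3.87 for the 17 PDS peaks (3.04 to 4.68), beside 3.59 over the PDS list. A log2 fold of at least 4 was reached by 10 Ctrl members (47.6%, against 22.0% of all Ctrl peaks) and 6 PDS members (35.3%, against 27.6%). The PDS share was thus near that of its list. The median −log10 p was 15.7 in Ctrl (list 11.9) and 19.2 in PDS (list 17.8), and 0 members carried the value of 400 that stands in for a very small p. Median widths were 63 nt in Ctrl and 65 nt in PDS, against 74 and 63 nt over the lists.

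**Figure D2:**
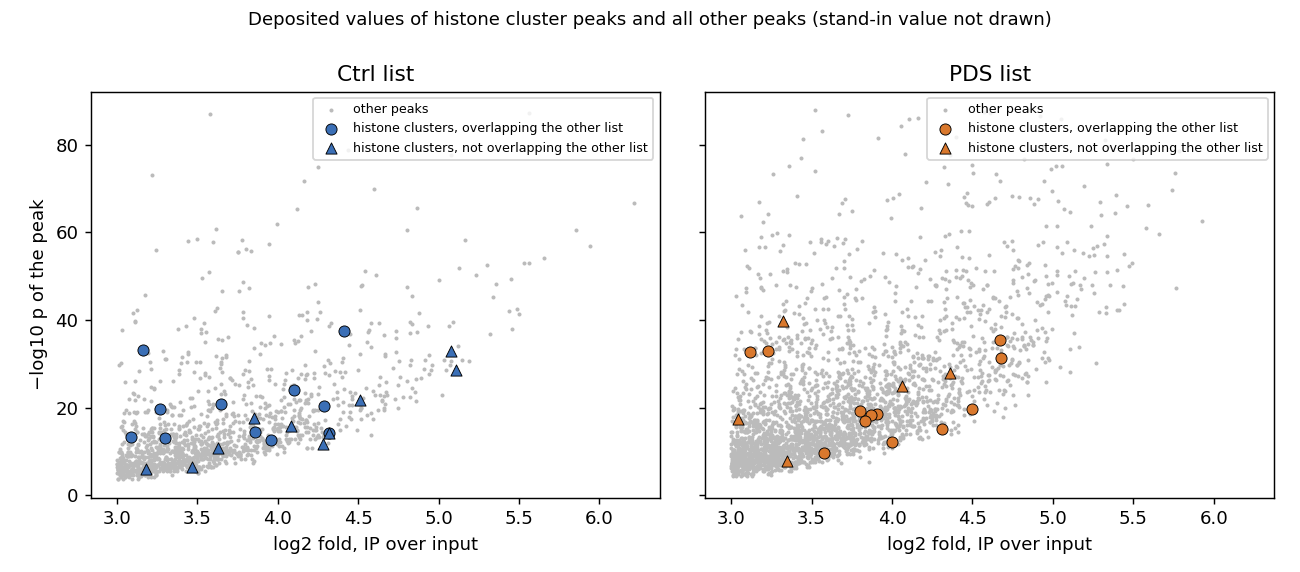
Deposited −log10 p (vertical axis) against log2 fold of IP over input (horizontal axis) for peaks of the Ctrl list (left) and PDS list (right). Grey points are peaks outside the clusters, circles are cluster peaks that overlap the other list and triangles those that do not. Outside peaks with the stand-in −log10 p of 400 are not drawn. The 2 Ctrl triangles at a log2 fold of 5.08 and 5.11 belong to H1-2 and H2BC21, and no PDS member lies above 4.68.

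By family, H2A, H2B and H3 genes held fewer peaks in the PDS list than in the Ctrl list, with PDS to Ctrl ratios of 0.50, 0.40 and 0.60 beside 2.06 over the whole lists. The 2 bound H1 genes, of 6 that RefSeq lists under older HIST1 or HIST2 names, held 5 Ctrl and 8 PDS peaks, over 162 and 362 nt. Their ratio of 1.60 was also under that of the whole lists, and the excess came from H1-4 (1 Ctrl and 4 PDS peaks), since H1-2 held 4 peaks in each list. The 5 bound H2A genes of 16 held 6 Ctrl and 3 PDS peaks over 504 and 239 nt, and the 5 bound H2B genes of 17 held 5 and 2 peaks over 400 and 182 nt. The 2 bound H3 genes of 13 held 5 and 3 peaks over 240 and 252 nt, so that there the number of peaks and the bound length ran in different directions. With peaks within 50 nt merged, each H3 gene held 1 region in each list, so neither lacked a PDS peak. H4 genes, 14 in RefSeq, were represented by 1 PDS peak on H4C5. In all, 15 of 66 listed genes held a peak; whether the others were transcribed in these cells was not analysed here, and not all of them need lie inside the windows.

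**Figure D3:**
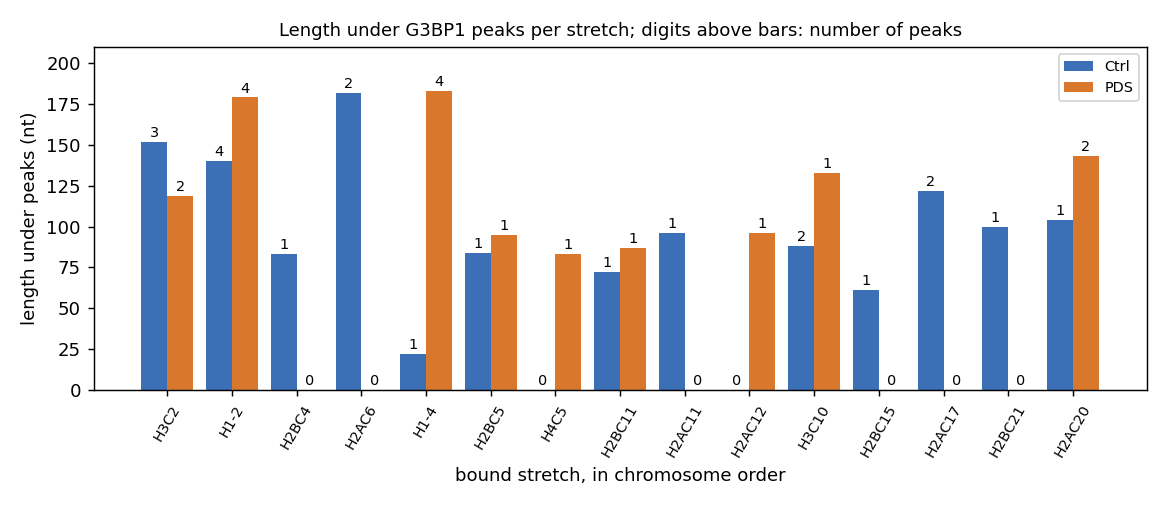
Length under peaks (vertical axis, nt) in each of 15 bound stretches in chromosome order, for the Ctrl and PDS lists; the digit above a bar is the number of peaks. On 6 stretches, H2BC4, H2AC6, H2AC11, H2BC15, H2AC17 and H2BC21, the PDS bar is at 0, and on H1-4 the PDS bar (183 nt) exceeds the Ctrl bar (22 nt) most.

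H1-2 encodes a linker histone, which binds DNA where it enters and leaves the nucleosome. Its stretch, chr6:26056206-26056656 on the minus strand, spanned 451 nt of a gene that RefSeq gives as 731 nt long. From 5′ to 3′, the leading peak was nearly the same in both lists: 26056594-26056656 in Ctrl (log2 fold 3.16, −log10 p 33.1) and 26056593-26056650 in PDS (3.23 and 33). Next came a Ctrl peak at 26056507-26056546 with a log2 fold of 5.08, rank 32 of 1421, which met no PDS peak and ended 9 nt short of one. That neighbouring PDS peak, 26056466-26056497 (log2 fold 4.67), overlapped a weaker Ctrl peak at 26056470-26056495 (4.10). A PDS peak at 26056430-26056465 (log2 fold 4.68, the highest of the PDS members) covered all of an 11-nt Ctrl peak (3.09). Last, a PDS peak at 26056206-26056258 (3.04) stood 191 nt from the nearest Ctrl peak. The highest enrichment within the gene thus lay further 3′ in the PDS list, at positions where Ctrl peaks were present but lower. The length under peaks was 140 nt in Ctrl and 179 nt in PDS, with 94 nt in common.

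H1-4, a further linker histone gene, had the largest excess of PDS over Ctrl length among the 15 stretches. Its stretch was chr6:26156694-26157079 on the plus strand, 386 nt of a 787-nt gene. The Ctrl list held a single 22-nt peak there, 26156721-26156742, with a log2 fold of 3.27 and a −log10 p of 19.6. The PDS list held 4 peaks. An abutting pair, 26156694-26156722 (log2 fold 3.12) and 26156723-26156743 (3.91), covered the Ctrl peak. The other two, 26156805-26156839 (4.36) and 26156982-26157079 (3.32), lay 62 and 239 nt from it. The last had a −log10 p of 39.7, the highest of all members.

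Among the core histone genes bound in both lists, H3C2 and H3C10 encode histone H3. On H3C2, at chr6:26032009-26032180 (minus strand), 3 Ctrl peaks and 2 PDS peaks lay side by side. The Ctrl peak at 26032053-26032118 (log2 fold 3.65) matched a PDS peak at 26032056-26032120 (4.50), and that at 26032123-26032165 (3.86) matched one at 26032127-26032180 (4.31). The remaining Ctrl peak, 26032009-26032051 (3.85), was 4 nt away from the nearest PDS peak. On H3C10, at chr6:27777994-27778138 (plus strand), a single PDS peak of 133 nt at 27778006-27778138 (3.83) shared 29 nt with the Ctrl peak 27777994-27778034 (3.96) and all 47 nt of the Ctrl peak 27778079-27778125 (4.32). On H3C2 the PDS peaks had the higher log2 fold in both matched pairs, and on H3C10 the Ctrl peaks did. The −log10 p mostly ran the other way. In the H3C2 pairs it was 20.9 in Ctrl against 19.6 in PDS, and 14.4 against 15.2. On H3C10 it was 12.7 and 14.3 in the Ctrl peaks against 16.9 in the PDS peak.

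**Figure D4:**
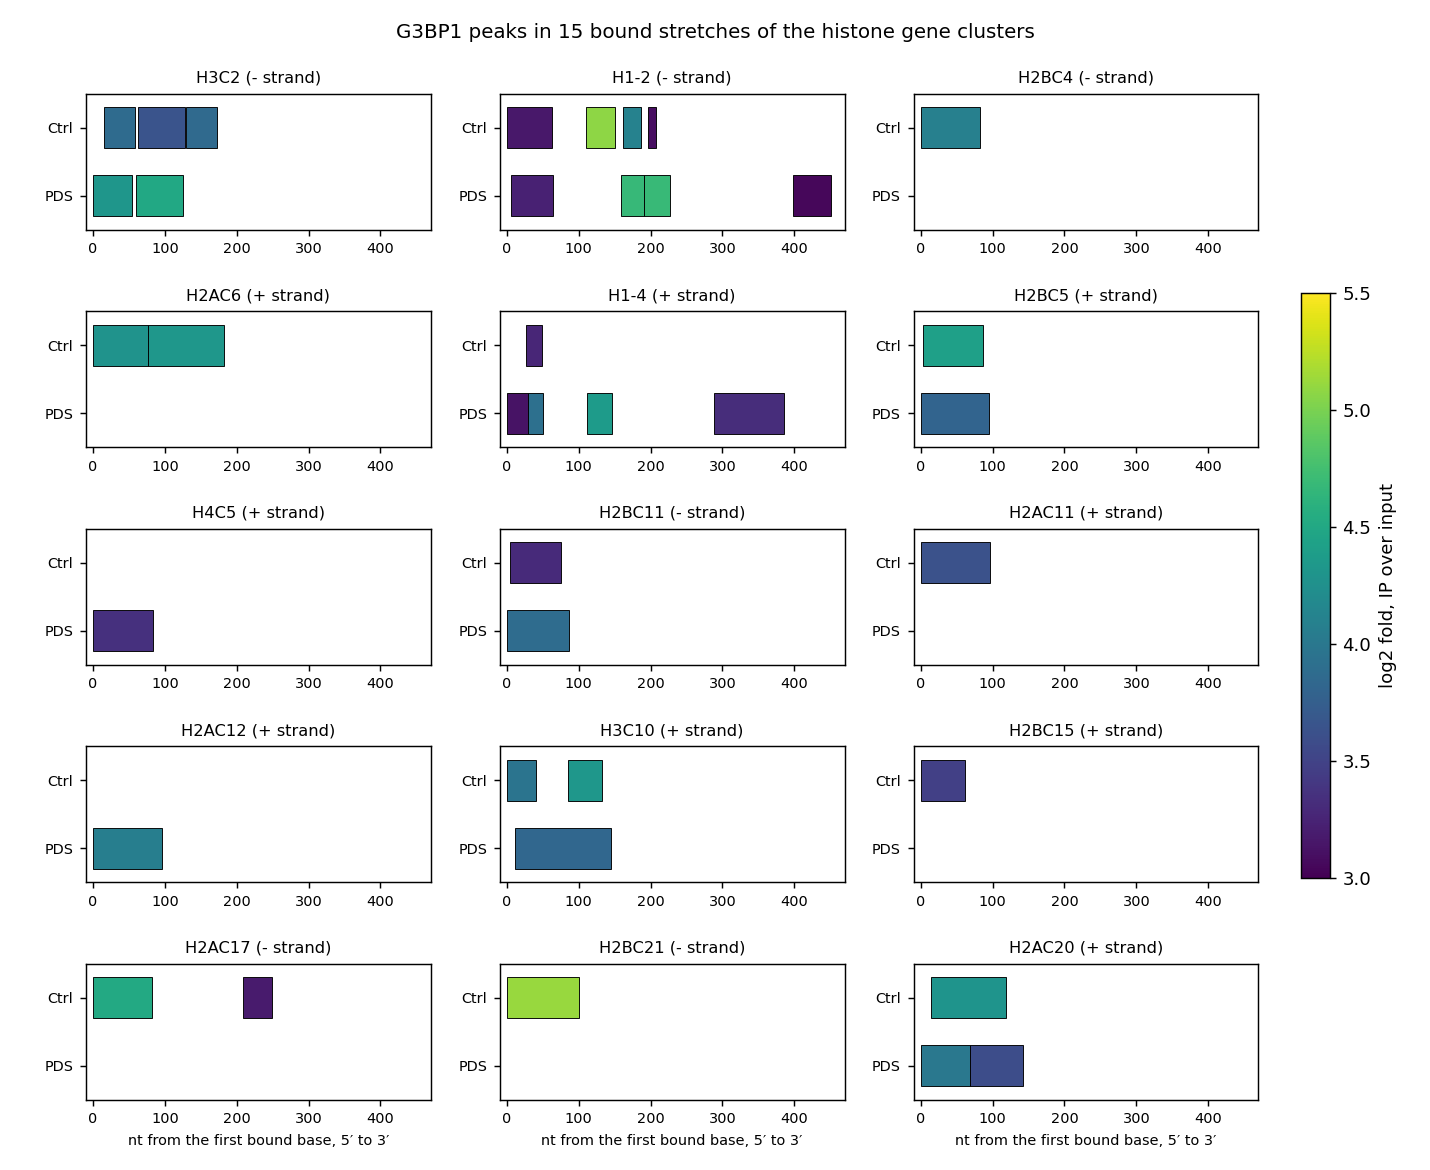
Peaks of the Ctrl list (upper row) and PDS list (lower row) in each of the 15 bound stretches, drawn to scale against distance in nt from the first bound base in the direction of transcription; colour gives the log2 fold of IP over input. On H1-2 the brightest Ctrl peak (5.08) faces a gap in the PDS row, on H1-4 the PDS row holds 4 peaks against 1, and 6 stretches have an empty PDS row.

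H2BC5 and H2BC11 encode histone H2B and held 1 peak in each list at nearly the same place, with enrichment higher in opposite lists. On H2BC5 (plus strand) the Ctrl peak 26158663-26158746 had a log2 fold of 4.41 and a −log10 p of 37.5, the highest −log10 p of the Ctrl members, and the PDS peak 26158660-26158754 had 3.80 and 19.2. On H2BC11 (minus strand) the Ctrl peak 27100189-27100260 had 3.30 and 13.1, and the PDS peak 27100178-27100264 had 3.87 and 18.3. On H2AC20, an H2A gene on chromosome 1 (plus strand), the Ctrl peak 149858585-149858688 (log2 fold 4.29) was met by an abutting pair of PDS peaks, 149858570-149858637 (4.0) and 149858638-149858712 (3.58).

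Over the clusters, 13 pairs of a Ctrl and a PDS peak overlapped. In 8 of them the midpoints were at most 10 nt apart, and the largest offset was 58 nt. The pairs are not independent: the Ctrl peaks of H1-4 and H2AC20 and the PDS peak of H3C10 are each counted repeatedly. A pair on H1-4 shared only 2 nt. Pairs over the whole lists were counted in the same way. The log2 fold was higher in the PDS peak in 7 pairs and lower in 6, with a median difference of 0.08 (PDS minus Ctrl, range -0.71 to 1.59). Over the 1002 overlapping pairs of the whole lists it was higher in the PDS peak in 64.9%, with a median of 0.24. The −log10 p was higher in the PDS peak in 7 of 13 pairs (53.8%), against 71.3% over all pairs. The pairs with the largest differences were on H1-2 (1.59, with the 11-nt Ctrl peak) and H3C2 (0.85) upwards, and on H2AC20 (-0.71) and H2BC5 (-0.61) downwards.

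The most enriched member of either list was on H2BC21, an H2B gene on the minus strand of chromosome 1. Its Ctrl peak, chr1:149857735-149857834, had a log2 fold of 5.11, rank 27 of 1421, and a −log10 p of 28.6, and the nearest PDS peak on that strand was 27098 nt away. It was 1 of 8 Ctrl peaks on the 6 genes without a PDS peak. Of these 8 peaks, 5 had a log2 fold of at least 4, beside 22.0% of all Ctrl peaks. H2AC17 (minus strand) held 27860735-27860816 (log2 fold 4.51, −log10 p 21.7) and a weak peak at 27860568-27860607 (3.18 and 5.97). H2AC6 (plus strand) held an abutting pair, 26124511-26124586 (4.28) and 26124587-26124692 (4.32), and H2BC4 (minus strand) held 26123783-26123865 (4.08). H2AC11 held 27100969-27101064 (3.63, −log10 p 10.7) and H2BC15 held 27806720-27806780 (3.47 and 6.44), both on the plus strand. The 8 Ctrl peaks on these 6 genes had a median log2 fold of 4.18 and a median −log10 p of 13.1, and the 13 Ctrl peaks on genes with both lists had 3.86 and 19.6. The Ctrl peaks on genes without a PDS peak thus had the higher median fold and the lower median −log10 p. Their folds ranged from 3.18 to 5.11, and those on genes with both lists from 3.09 to 5.08. The same split was not made over the whole Ctrl list, so it has no background here.

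The peaks found in the PDS list alone were fewer. H2AC12 (plus strand) held 27115023-27115118, with a log2 fold of 4.06 and a −log10 p of 24.9. H4C5 (plus strand) held 26205011-26205093, with 3.35 and 7.8, the lowest −log10 p of the PDS members. The nearest Ctrl peaks on the same strand were 13958 and 46264 nt away.

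At 3 places a bound H2B gene on the minus strand and a bound H2A gene on the plus strand stood back to back, with 645 to 735 nt between their bound stretches. In the Ctrl list both genes held a peak at all 3 places. In the PDS list neither gene of the H2BC4 and H2AC6 pair did, H2BC11 did without H2AC11, and H2AC20 did without H2BC21. Places were taken only where both genes were bound in either list, and 13 of the 15 stretches held a Ctrl peak. Full occupancy in the Ctrl list was therefore close to implied by that choice. The genes without a PDS peak here are among those already given as bound in the Ctrl list alone. Such pairs were not counted over the whole lists. On the opposite strand, 0 Ctrl members overlapped a PDS peak.

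Some deposited values were repeated. In the Ctrl list, 277 peaks (19.5%) had both values equal to those of another Ctrl peak, and 3 of them were members; on H2AC6 the peak 26124587-26124692 and on H3C10 the peak 27778079-27778125 both carried a log2 fold of 4.32 and a −log10 p of 14.3. In the PDS list this held for 20 peaks (0.684%) and 0 members.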

How the data were processed

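Each list holds 6 columns without a header: chromosome, start, end, the authors' deposited −log10 p, the authors' deposited log2 fold of IP over input, and strand. Both value columns were identified from their ranges and the usual eCLIP format. Per the submitters' processing notes, cutadapt, UMI-tools and STAR were used on hg19; neither the peak caller nor how replicates were joined is given in the sources used here. Starts were read as counted from 0 and are printed from 1. Overlaps, merging and exact (Clopper-Pearson) 95% intervals were computed with python 3.11.15, numpy 2.4.6, pandas 2.3.3 and scipy 1.17.1, and the overlap functions were checked on simulated intervals. Sequencing depth is unknown, and replicates have no values of their own. Members, windows and alternatives were chosen with earlier results of these data known, and the joining of peaks into stretches was added after the peaks had been seen. All 38 members are described. The rule fixed for names asked for a file that places genes on hg19; no such file was used, so histone gene names come from general knowledge of that map and were checked only for order, strand and length. The planned lists of histone and histone mRNA processing genes outside the windows were not examined.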

Additional observations from a re-analysis of the deposited data

How the results depend on the processing

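Of 62 alternative values, 50 stayed close to the reported one and 12 moved. Only values of the ratio of PDS to Ctrl peaks could turn from below to above 1. Of those 0 did, though 1 setting reached 1.00. Close meant within 1.5 times for counts and ratios, and within the 95% interval for shares and medians. Some of the 50 could not move: shortening the PDS list left the Ctrl count at 21, and no peak touched a border. The intervals for the shares were also wide (29.8 to 74.3% and 44 to 89.7%), so the tally is no measure of stability. The stricter limits (−log10 p of at least 5, log2 fold of at least 4), applied to both lists, left 10 Ctrl and 6 PDS peaks, overlapping shares of 10% and 16.7%, and 1 stretch in both lists. Without the first chromosome 6 window 9 Ctrl and 5 PDS peaks remained by construction. With the PDS list shortened to its 1421 most enriched peaks it held 11 members, a ratio of 0.52 where the lists are equal in length. Joining peaks over gaps of up to 100 nt gave 4 stretches in the PDS list alone, because those on H1-2 and H1-4 were split. Counting a list only with at least 2 peaks gave 3 stretches in Ctrl alone and 2 in both. The settings on stretches, and the stricter limits applied to the counted peaks alone, were chosen after seeing the data. The ratio of PDS to Ctrl peaks lay between 0.52 and 1.00, the latter without the second chromosome 6 window. No paired analysis was possible because the replicates were combined before deposit, which also meant that none could be left out. Unknown depth limits any statement on a peak that is missing from a list.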
